A study of Mus musculus with 10 samples.

Results

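The genes described here encode 10 phosphatases, kinases and docking proteins that act inside the cell below inhibitory receptors: Ptpn6, Ptpn11, Inpp5d, Ptpn22, Csk, Pag1, Lyn, Dok1, Dok2 and Dok3. They were listed by name for their role, with no threshold on a measured value, as signalling proteins that LAIR1 and related receptors recruit or that work with them. All 10 were found among the 52636 Ensembl genes of the count table, and all 10 passed the filter on low counts that left 13469 genes to test. The libraries were bulk RNA sequencing of nonclassical monocytes, the patrolling monocyte subset, sorted from mouse bone marrow. There were 5 libraries of genotype LAIR1+/+ (called WT) and 5 of genotype LAIR1-/- (called LAIR1KO). Neither group was treated, and both were prepared by the same low-input protocol. The labels used here give neither the age and strain of the animals nor how the allele was made. The comparison of LAIR1KO with WT asks whether transcripts of the receptor's signalling partners differ in cells without the receptor.

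An inhibitory receptor of this type carries a short tyrosine motif in its tail, the ITIM. A Src family kinase phosphorylates the motif, and the phosphotyrosine then binds proteins with SH2 domains. SHP-1 and SHP-2 remove phosphate from signalling proteins, SHIP-1 removes it from an inositol lipid made by PI3-kinase, and CSK shuts off Src family kinases. In monocytes and macrophages SHP-1 and SHIP-1 can limit signalling from activating Fc and lectin receptors.

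Total counts per library ran from 12106209 to 15356924. Lair1 itself held 4230 to 5579 counts in each WT library and 0 to 10 counts in each LAIR1KO library, so each library matched its label. The 14 nonclassical monocyte markers were abundant, at a summed 14690 to 17960 CPM (counts scaled to the library size with the TMM factors of edgeR) in WT and 11560 to 15960 CPM in LAIR1KO, and 0 of 14 passed the edgeR test between genotypes (3 at an unadjusted p under 0.05, 1 passing with DESeq2 and 0 with limma voom). Markers of other marrow cells did differ, in a comparison where 5.11% of all tested genes were higher and 1.68% lower in LAIR1KO at an adjusted p under 0.05, and 21.8% had an unadjusted p under 0.05. Of 11 myeloid progenitor markers 10 were higher in LAIR1KO, with a summed level of 558 to 1441 CPM in WT and 3244 to 6946 CPM in LAIR1KO. All 13 markers of dividing cells were higher as well (261 to 374 CPM against 555 to 1128 CPM). Of 11 tested resident macrophage markers 7 were lower (1751 to 2260 CPM against 957 to 1234 CPM). Further lists gave 2 of 7 classical monocyte markers higher, 3 of 7 dendritic cell markers lower, 5 of 10 erythroid and platelet markers lower, 1 of 4 eosinophil, basophil and mast cell markers higher, and 1 of 2 T and NK cell markers higher. For the dendritic, erythroid and eosinophil lists limma voom called 2, 1 and 0 genes, and DESeq2 4, 5 and 2. The summed erythroid and platelet markers overlapped, at 102 to 1302 CPM in WT (highest in WT replicate 2) and 48.7 to 145 CPM in LAIR1KO. The other tested T and NK cell marker went the opposite way (log2 fold change -2.045) and did not pass. None of 11 neutrophil or 7 B cell markers passed (edgeR; 1 in each list had an unadjusted p under 0.05, and DESeq2 and limma voom called 0). No marker was at 0 in every library, but 7 of the 10 T and NK cell markers, among them Cd3e, Cd3g and Ncr1, stayed under 1 CPM in every library. In bulk samples, fewer cells of a type and less RNA per cell cannot be told apart.

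The effector genes differed widely in level within a library, and the order of their means was the same in both genotypes. Levels of different genes are compared here per length, as CPM per kilobase of exon. Ptpn6, which encodes SHP-1, the tyrosine phosphatase of haematopoietic cells, stood highest at 597 ± 69.9 in WT (SD, n = 5). Dok3, a docking protein of myeloid and B cells, followed at 220 ± 12.8, and the Src family kinase Lyn at 180 ± 8.13. Csk, the kinase that inactivates Src family members, had 80.8 ± 4.61, the docking protein Dok1 73.5 ± 9.81, and Inpp5d, which encodes SHIP-1, 62.4 ± 3.77. Ptpn22, a phosphatase that binds CSK, had 31.1 ± 4.21. Lowest were Ptpn11, encoding the widely expressed phosphatase SHP-2, at 12.3 ± 1.76, Pag1, the membrane anchor of CSK, at 8.18 ± 1.02, and Dok2, a docking protein related to Dok1, at 2.65 ± 0.956. In WT the ranges of neighbours in this order overlapped for Csk with Dok1 and for Dok1 with Inpp5d. In LAIR1KO they overlapped for these and for Dok3 with Lyn. When the longest transcript replaced the union of exons as length, 7 of the 10 genes kept their place in WT, and Inpp5d (96.1) and Ptpn22 (76.3) moved above Dok1 (73.9).

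**Figure D1:**
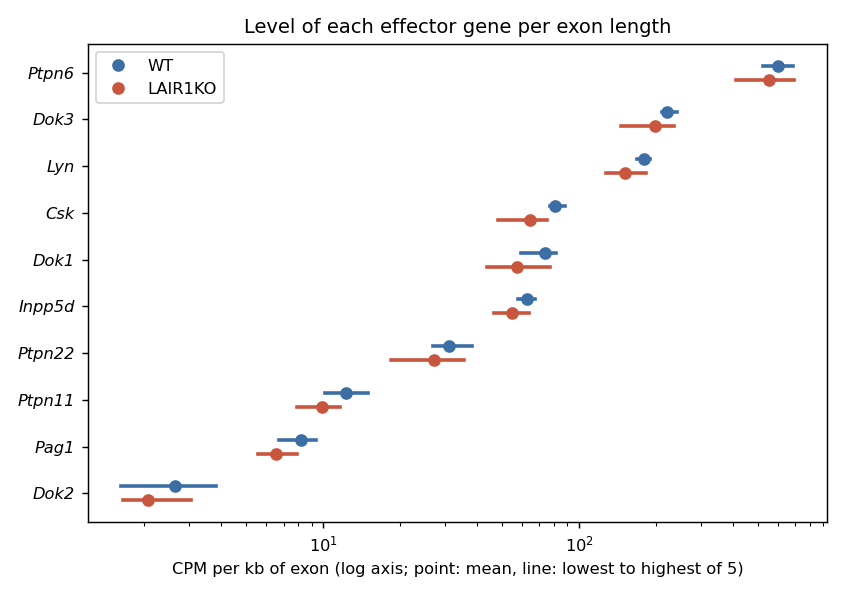
Level of each effector gene in CPM per kilobase of exon on a log axis, with the mean (point) and the lowest to highest of 5 libraries (line) for WT in blue and LAIR1KO in red. Ptpn6 at 597 and Dok2 at 2.65 mark the ends of the order in WT, and the order of means is the same in LAIR1KO.

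Promoter sequences in RefSeq (GRCm38.p6) were matched for 6 of the 10 genes. For Inpp5d and Ptpn11, RefSeq gives a single start, and it is the first base of the GENCODE gene. These 2 are shown because they are the abundant, blood-restricted lipid phosphatase and the scarce, widely expressed tyrosine phosphatase of the set. Each run is the 250 bases before the start, 5′ to 3′ on the strand of the gene. Capitals mark every match, on either strand, to GGAAGT, a core bound by ETS family factors such as PU.1, or to GGGCGG, the GC box of SP family factors. The motifs share no match.
Inpp5d, plus strand, chr1:87620062-87620311: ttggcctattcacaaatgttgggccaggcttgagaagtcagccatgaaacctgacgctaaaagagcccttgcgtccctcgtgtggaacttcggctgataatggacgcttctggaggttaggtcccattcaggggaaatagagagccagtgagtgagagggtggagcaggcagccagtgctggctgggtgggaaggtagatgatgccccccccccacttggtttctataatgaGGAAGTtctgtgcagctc
Ptpn11, minus strand, chr5:121191398-121191647: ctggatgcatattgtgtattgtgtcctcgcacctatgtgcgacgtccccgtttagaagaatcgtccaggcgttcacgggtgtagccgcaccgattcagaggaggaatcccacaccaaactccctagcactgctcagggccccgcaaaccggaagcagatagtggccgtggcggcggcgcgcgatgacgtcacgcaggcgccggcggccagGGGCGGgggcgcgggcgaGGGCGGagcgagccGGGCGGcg
The Inpp5d window held 1 GGAAGT and 0 GGGCGG matches, and the Ptpn11 window 0 and 3. Among 32851 RefSeq promoter windows of the same length, 19.7% held GGAAGT and 32.7% held GGGCGG on either strand. The contrast between these windows was not general in the set. In the same order of motifs Ptpn6 had 2 and 5 matches, Dok3 had 1 and 0, the windows of Ptpn22 had 2 and 0 and 0 and 0, and both windows of Csk had 0 and 0. A match is a description of the letters only.

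None of the 10 effector genes passed the threshold between genotypes, an adjusted p under 0.05 in edgeR's quasi-likelihood test over all 13469 genes, where 6.79% of genes passed. DESeq2 and limma voom also called 0 of 10. At an unadjusted p under 0.05, 5 of the 10 were lower in LAIR1KO (Csk, Pag1, Lyn, Ptpn11 and Dok1), where 8.92% of all genes were lower at that level. That count of 5 rested on single libraries. It was 1 without WT replicate 3, 2 without WT replicate 5, and 3 without WT replicate 1, WT replicate 2, LAIR1KO replicate 1 or LAIR1KO replicate 4. It was 2 without LAIR1KO replicates 4 and 5 together, 1 without WT replicates 1 and 4 together, 3 with the replicate block and 0 with library totals. All 10 log2 fold changes (LAIR1KO minus WT) lay below 0, between -0.36 and -0.12 with a median of -0.28, except that Ptpn6 stood at 0.0088 when libraries were scaled by their totals. Over all tested genes 50.3% lay below 0 and the median was -0.00181. Scaling by totals moved the median of all genes to 0.13 and that of the 10 effectors to -0.15. The 14 nonclassical monocyte markers had a median of -0.25, with all 14 below 0. The difference between these medians was not tested.

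The intervals bound how large a difference these libraries allow. The lower end of the 95% interval of the fold LAIR1KO over WT was 0.523 for Dok2, 0.607 for Dok1 and 0.656 to 0.756 for the other 8 genes, so with all 10 libraries a fall to a 2-fold lower level lay outside each interval. For Dok2 this limit did not hold when single libraries were left out. The lower end of its interval was 0.457 without LAIR1KO replicate 1, 0.481 without WT replicate 2, 0.48 without WT replicate 3 and 0.494 without WT replicate 5. For the other 9 genes the limit held in every edgeR fit tried. The upper end ran from 0.954 for Csk to 1.17 for Dok2. The fitted folds themselves lay between 0.778 and 0.922. In simulated counts for this comparison a change of 1.3-fold was detected in 12% of altered genes, one of 1.5-fold in 22% and one of 2-fold in 84%. Each size of change was given to 50 genes with a mean of at least 10 CPM. Dok2, at a mean of 7.68 CPM in WT and 5.99 CPM in LAIR1KO, lay below that level, so these shares do not cover it.

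**Figure D2:**
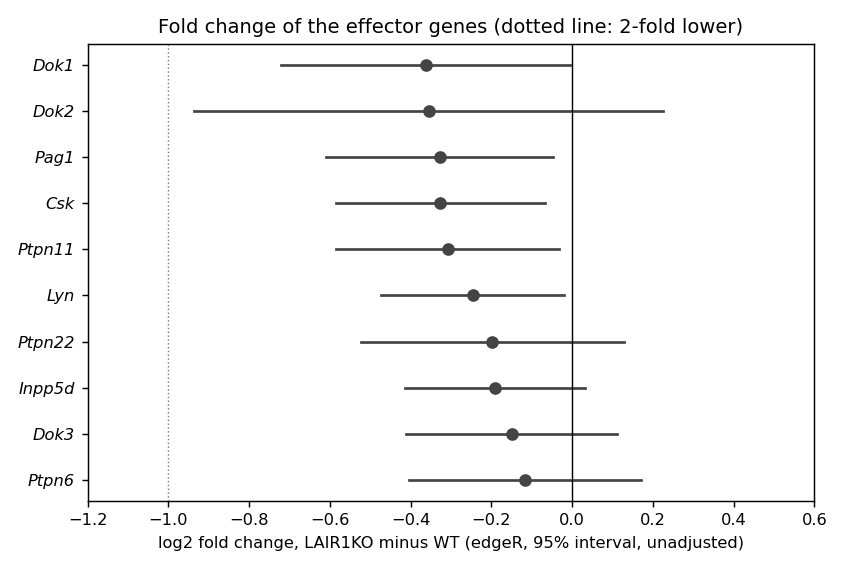
Log2 fold change (LAIR1KO minus WT) of each effector gene from edgeR, with the 95% interval as a line, unadjusted for the number of genes, and a dotted line at 2-fold lower. All 10 points lie below 0 with TMM scaling (Ptpn6 is at 0.0088 when scaled by library totals), and with all 10 libraries no interval reaches the dotted line.

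Ptpn6 and Ptpn11 encode the tandem SH2 phosphatases that bind a phosphorylated ITIM directly. Ptpn6 (ENSMUSG00000004266, GRCm38 chromosome 6, 124720707 to 124738714, minus strand) stood at 1631, 1528, 1834, 1916 and 1460 CPM in WT replicates 1 to 5. In LAIR1KO replicates 1 to 5 it stood at 1508, 1706, 1933, 1417 and 1154 CPM. The groups overlapped, with the highest value of all 10 in LAIR1KO replicate 3 and the lowest in LAIR1KO replicate 5 (log2 fold change -0.12 ± 0.13 SE, edgeR adjusted p = 0.667). An antisense gene, Gm20531, overlapped 6.96% of the exon bases of Ptpn6, with a mean of 510 counts against 22120, and reads of the pair cannot be told apart where the strand setting is not given.

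Ptpn11 (ENSMUSG00000043733, chromosome 5, 121130533 to 121191397, minus strand) had 89.3, 89.2, 112, 93.4 and 76.0 CPM in WT. The LAIR1KO libraries had 81.0, 87.4, 67.6, 59.4 and 76.4 CPM. LAIR1KO replicates 3 and 4 lay below every WT library and the other 3 within the WT range (-0.31 ± 0.13, edgeR adjusted p = 0.180). Per exon length Ptpn6 exceeded Ptpn11 by 43.6 to 54.9 times in the WT libraries and by 40.4 to 76.4 times in the LAIR1KO libraries, so the ranges of this ratio overlapped.

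Inpp5d encodes the lipid phosphatase SHIP-1, which inhibitory Fc receptor tails recruit. The gene (ENSMUSG00000026288, chromosome 1, 87620312 to 87720507, plus strand) had 511, 451, 482, 440 and 487 CPM in WT. Its LAIR1KO values were 359, 352, 426, 484 and 458 CPM. Replicates 1 to 3 of LAIR1KO lay below every WT library, and replicates 4 and 5 lay inside the WT range (-0.19 ± 0.10, edgeR adjusted p = 0.311). Its widely expressed relative Inppl1, which encodes SHIP-2, was far scarcer. Per exon length Inpp5d exceeded Inppl1 by 10.6 to 16.0 times in WT and 12.5 to 21.4 times in LAIR1KO.

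CSK, its membrane anchor and its partner phosphatase form the arm that holds Src family kinases inactive. Csk (ENSMUSG00000032312, chromosome 9, 57626646 to 57653631, minus strand) had 289, 293, 307, 330 and 292 CPM in WT. In LAIR1KO it had 257, 275, 281, 211 and 181 CPM. Every LAIR1KO library lay below every WT library, which held for 1 of the 10 effectors and for 2.06% of all genes tested. The log2 fold change was -0.33 ± 0.12 and did not pass (edgeR adjusted p = 0.129, and 0.0674 to 0.369 over the alternatives). LAIR1KO replicates 4 and 5 were lowest. Without them the log2 fold change was -0.16 (adjusted p = 0.369). Per exon length Csk exceeded Matk, which encodes the CSK relative CHK, by 5.37 to 7.60 times in WT and 3.69 to 5.27 times in LAIR1KO. This ratio did not overlap between the genotypes, with the closest values at 5.37 and 5.27, and it was not tested. How often ratios of other gene pairs lack overlap was not counted. The ratio of Csk to Pag1 did overlap, at 8.73 to 13.2 and 6.44 to 13.5.

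Pag1 (ENSMUSG00000027508, chromosome 3, 9687479 to 9833679, minus strand) had 76.8, 76.2, 90.1, 64.2 and 84.4 CPM in WT. The values in LAIR1KO were 56.8, 54.6, 53.3, 75.6 and 72.0 CPM. Replicates 1 to 3 of LAIR1KO lay below every WT library and replicates 4 and 5 within the WT range (-0.33 ± 0.13, edgeR adjusted p = 0.160). Without LAIR1KO replicates 4 and 5 Pag1 passed (-0.51, adjusted p = 0.0483), and it passed when trends with GC content and length were taken out of each library (-0.42, adjusted p = 0.0189). Ptpn22 (ENSMUSG00000027843, chromosome 3, 103859795 to 103912247, plus strand) ranged from 181 to 258 CPM in WT, with a median of 206. In LAIR1KO it ranged from 125 to 241 CPM with a median of 179, and the ranges overlapped (-0.20 ± 0.15, edgeR adjusted p = 0.491).

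Lyn is the Src family kinase that phosphorylates ITIMs in many myeloid cells. The gene (ENSMUSG00000042228, chromosome 4, 3678115 to 3813122, plus strand) had 731, 715, 751, 687 and 774 CPM in WT. In LAIR1KO it had 650, 640, 745, 530 and 516 CPM. LAIR1KO replicate 3 lay within the WT range and the other 4 below it (-0.25 ± 0.11, edgeR adjusted p = 0.193). The antisense gene Gm26857 overlapped 6.09% of the exon bases of Lyn, with 174 counts against 9214. Relative to the family members Fgr and Fyn, Lyn made up 29.8% to 33.2% of the level per exon length summed over these 3 genes in WT and 30.2% to 31.5% in LAIR1KO. Fgr made up 52.02% to 57.7% and 51.9% to 60.4%. The ranges of both shares overlapped between the genotypes. Csk stood at 0.133 to 0.158 of the same sum in WT and 0.119 to 0.141 in LAIR1KO.

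The DOK proteins are docking proteins that bind other signalling proteins once phosphorylated, and the partners differ between members. Dok1 (ENSMUSG00000068335, chromosome 6, 83030934 to 83033471, minus strand) had 156, 161, 159, 117 and 134 CPM in WT. The 5 LAIR1KO libraries had 104, 137, 152, 86.4 and 86.2 CPM. LAIR1KO replicates 1, 4 and 5 lay below every WT library (-0.36 ± 0.17, edgeR adjusted p = 0.222). Without LAIR1KO replicates 4 and 5 the log2 fold change was -0.15. Dok3 (ENSMUSG00000035711, chromosome 13, 55523231 to 55529296, minus strand) ranged from 516 to 591 CPM in WT with a median of 527. In LAIR1KO it ranged from 360 to 578 CPM with a median of 489, and replicates 2 and 3 lay within the WT range (-0.15 ± 0.12, edgeR adjusted p = 0.517). Dok2 (ENSMUSG00000022102, chromosome 14, 70766036 to 70778495, plus strand) was scarce, at 4.71 to 11.04 CPM in WT and 4.78 to 8.82 CPM in LAIR1KO, and the ranges overlapped (-0.36 ± 0.27, edgeR adjusted p = 0.486). Its lowest library held 56 counts, which limits the precision. Dok3 made up most of the DOK level per exon length, 72.0% to 79.4% in WT and 74.6% to 80.1% in LAIR1KO. Dok2 made up 0.546% to 1.24% and 0.606% to 1.20%.

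**Figure D3:**
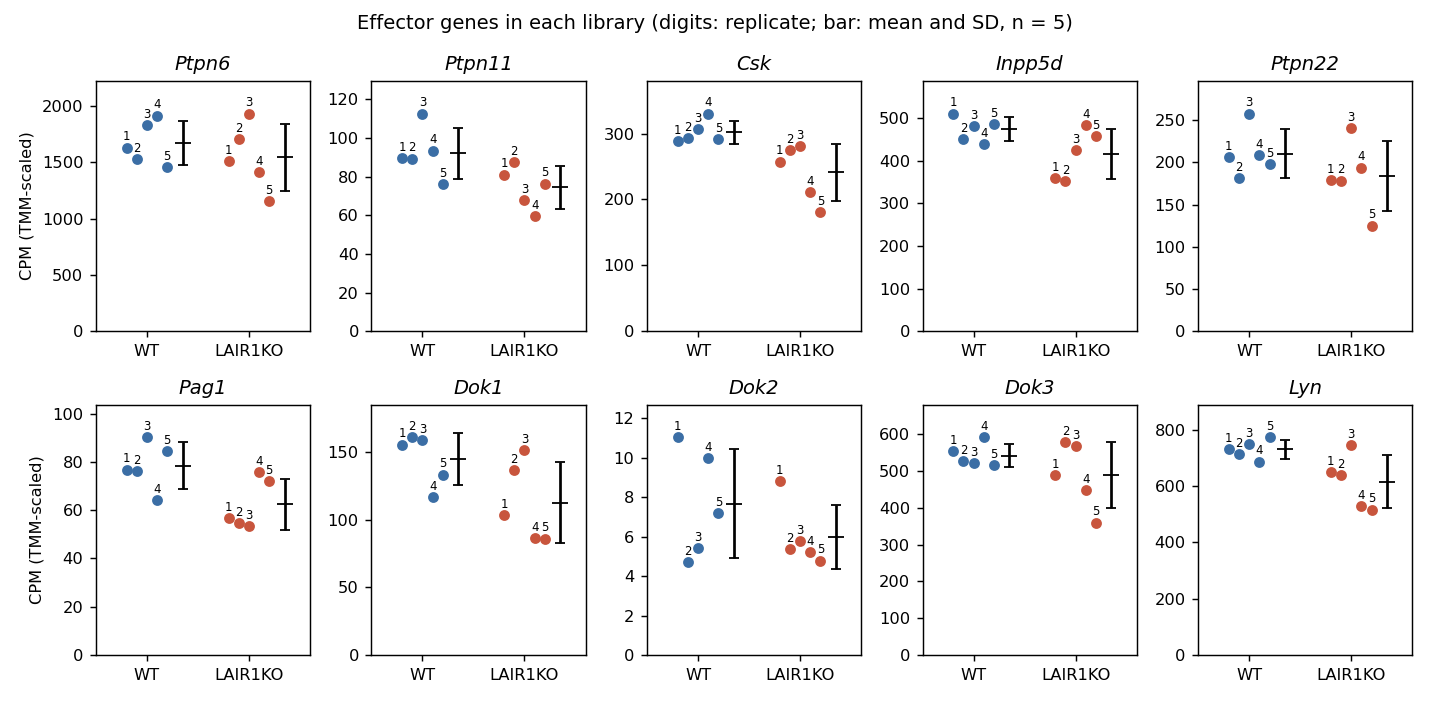
CPM of each effector gene in the 5 WT (blue) and 5 LAIR1KO (red) libraries, labelled by replicate number, with the mean and SD beside them; each axis starts at 0. The groups overlap for 9 genes, and for Csk the LAIR1KO libraries (181 to 281 CPM) all lie below the WT libraries (289 to 330 CPM).

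The LAIR1KO libraries were not alike for these genes. For Ptpn6, Csk, Dok1, Dok3 and Lyn, LAIR1KO replicates 4 and 5 had the lowest values of all 10 libraries. For Inpp5d and Pag1 the same replicates had the highest values among LAIR1KO. In LAIR1KO the coefficient of variation was 15.3% for Lyn, 18.0% for Csk, 18.4% for Dok3 and 26.5% for Dok1, against 4.53%, 5.70%, 5.79% and 13.3% in WT. For Ptpn6, Ptpn22, Inpp5d and Pag1 it was 19.1%, 22.5%, 14.2% and 16.8%, against 11.7%, 13.6%, 6.04% and 12.5% in WT. Ptpn11 was nearly the same (14.8% against 14.3%), and Dok2 went the other way (27.0% against 36.1%). The spread of genes outside the set was not compared. The summed progenitor markers were 3769, 4039, 3244, 5537 and 6946 CPM in LAIR1KO replicates 1 to 5, so replicates 4 and 5 were highest there. The dividing cell markers summed to 735, 807, 555, 1077 and 1128 CPM in the same order. LAIR1KO replicate 3, which had the least of both, had the highest LAIR1KO values of Ptpn6, Csk, Ptpn22, Dok1 and Lyn. The other genes did not follow this. The same replicate had the lowest Pag1 of all 10 libraries (53.3 CPM). Its Ptpn11 (67.6 CPM) was below every library except LAIR1KO replicate 4 (59.4 CPM). Its Dok3, Dok2 and Inpp5d were not the highest of LAIR1KO. The part of the progenitor and dividing cell transcripts in these differences was not tested. Without LAIR1KO replicates 4 and 5 the median log2 fold change of the 10 genes was -0.16, Ptpn6 (0.034) and Dok3 (0.0059) turned to values above 0, and Pag1 was the 1 gene that passed.

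**Figure D4:**
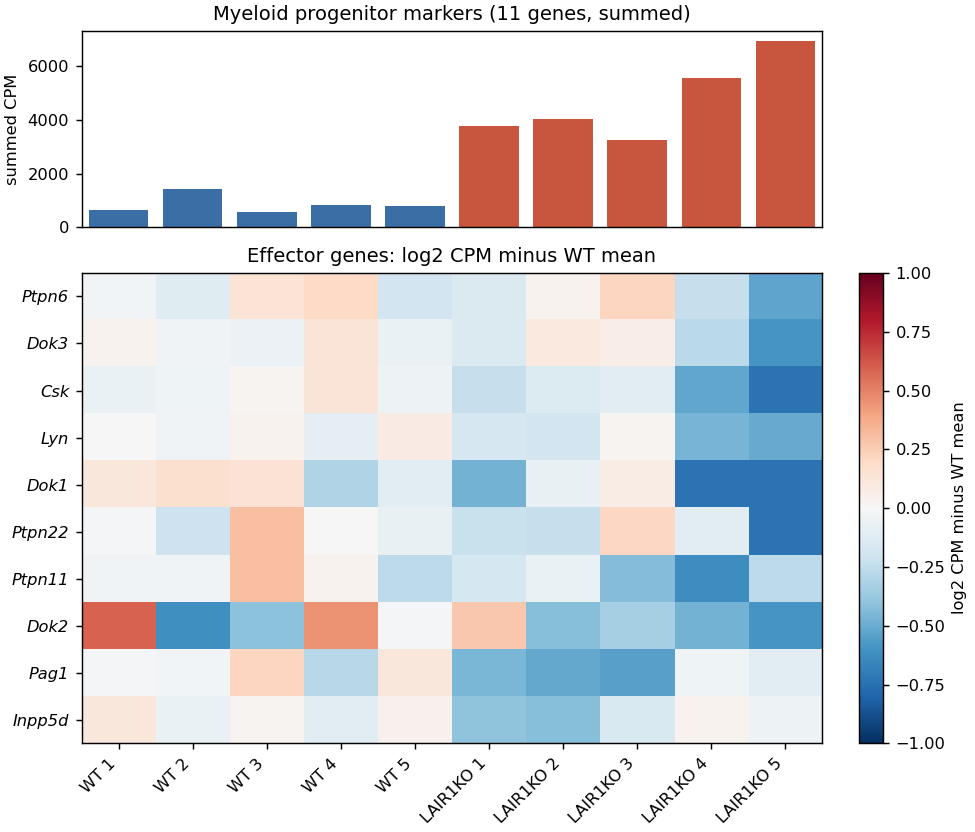
Top, CPM summed over 11 myeloid progenitor markers in each library; bottom, log2 CPM of each effector gene minus its WT mean, blue for lower and red for higher. LAIR1KO replicates 4 and 5 have the highest progenitor sums (5537 and 6946 CPM) and the lowest Csk, Dok1, Dok3, Lyn and Ptpn6, while Inpp5d and Pag1 are lowest in other LAIR1KO libraries.

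Other genes of the pathway were read from 6 lists of kinases, phosphatases, adaptors and lipid enzymes. Of 83 tested genes 2 passed as higher and 1 as lower, against 5.11% and 1.68% of all genes, and 58 lay below 0 with a median of -0.15. By list, 0 of 5 other Src family kinases, 0 of 3 CSK relative and transmembrane adaptor genes, 0 of 22 inositol phosphatase and PI3-kinase genes and 0 of 20 docking and RAS regulator genes passed. At an unadjusted p under 0.05 these lists had 0, 0, 3 and 2 genes, against 21.8% of all genes, and DESeq2 and limma voom called 0 in each. The smallest p in the last 3 lists belonged to the CSK relative Matk (0.22, edgeR adjusted p = 0.446), Inppl1 (-0.39, 0.144) and the adaptor Skap2 (-0.21, 0.161). An antisense gene, Gm10602, overlapped 18.8% of the exon bases of Inppl1, with 8.40 counts against 354.

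Among 17 other phosphotyrosine phosphatases Ptpn7 and Ubash3a passed in edgeR, both as higher. DESeq2 called 3 genes of the list and limma voom 2. An unadjusted p under 0.05 in edgeR was found for 4 of the 17, near the 21.8% of all genes. Ptpn7, a haematopoietic phosphatase of MAP kinases, had 40.1, 55.6, 39.7, 62.6 and 66.3 CPM in WT. In LAIR1KO it had 81.0, 97.9, 92.8, 133 and 135 CPM, every value above every WT library (log2 fold change 1.03 ± 0.19, edgeR adjusted p = 0.00538). Ubash3a, a CBL-binding phosphatase relative known from T cells, had 1.17, 3.37, 2.90, 2.90 and 5.19 CPM in WT. In LAIR1KO it had 10.03, 15.9, 6.76, 16.3 and 20.2 CPM, also without overlap (2.15 ± 0.36, edgeR adjusted p = 0.00393). All LAIR1KO libraries lay above all WT libraries for 5.61% of tested genes. Both genes were highest in LAIR1KO replicates 4 and 5, where the progenitor sums were highest, and both passed without these replicates (edgeR adjusted p = 0.0426 for Ptpn7 and 0.0374 for Ubash3a). The part of progenitor transcripts in their rise was not tested.

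Among 16 tested genes of SYK and its targets 1 passed in edgeR, as lower. This was Blnk, an adaptor best known from B cells. DESeq2 called 3 genes of the list and limma voom 1, and 6 had an unadjusted p under 0.05 in edgeR, against 21.8% of all genes. Blnk had 9.37, 9.51, 4.31, 6.48 and 8.75 CPM in WT and 3.20 to 3.65 CPM in LAIR1KO, without overlap (-1.17 ± 0.24, edgeR adjusted p = 0.00993). Blnk lost its call without LAIR1KO replicates 4 and 5 (adjusted p = 0.0656) and without WT replicates 1 and 4 (0.0563). The summed B cell markers were 959 to 1401 CPM in WT and 914 to 1391 CPM in LAIR1KO, with 0 of 7 passing. Of the resident macrophage markers 7 of 11 were lower and 0 higher, and of the dendritic cell markers 3 of 7 were lower and 0 higher. The part of B cell, macrophage and dendritic cell transcripts in the difference of Blnk was not tested.

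ITIM receptors are the membrane partners of these effectors. Besides Lair1, 4 of 18 tested receptor genes were lower and 0 higher, with a median of -0.31, namely Siglece (-0.99), Clec4a2 (-1.16), Fcgr2b (-0.54) and Cd72 (-0.98), with edgeR adjusted p from 0.00165 to 0.0252. Of all tested genes 1.68% were lower and 5.11% higher. DESeq2 called 5 of the receptor genes and limma voom 4, and 7 had an unadjusted p under 0.05 in edgeR, against 21.8% of all genes. In the same libraries 7 of 11 resident macrophage markers were lower, at a summed 957 to 1234 CPM in LAIR1KO against 1751 to 2260 CPM in WT. So were 3 of 7 dendritic cell markers (161 to 211 CPM against 220 to 295 CPM). The part of macrophage and dendritic cell transcripts in the receptor differences was not tested. Fcgr2b and Cd72 lost their calls when single libraries were left out (edgeR adjusted p up to 0.0573 and 0.0631). An antisense gene, Tesk1, overlapped 41.6% of the exon bases of Cd72, with a mean of 90.8 counts against 276. Reads of Cd72 and Tesk1 cannot be told apart there, as the strand setting is not given. The most abundant receptor of the list, Sirpa, stood at 315 CPM per kilobase in WT, Pirb at 83.4 and Lair1 at 50.1, against 597 for Ptpn6 and 12.3 for Ptpn11.

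The tested genes whose log2 CPM followed each effector most closely over the 10 libraries, both genotypes pooled, are given as a description by Pearson's r. For Ptpn6 they were Dcaf11, Pros1 and Eno3 (r = 0.960 to 0.965), for Ptpn11 Rtn4, Arl4c and Zfp91 (0.907 to 0.948), and for Csk Coro1a, Lsp1 and Tmem51 (0.975 to 0.979). For Inpp5d they were Cap1, Plxnb2 and Ncoa3 (0.944 to 0.959), for Ptpn22 Stk38, Mpv17 and Ptpro (0.935 to 0.957), and for Pag1 Arap1, Syk and Tgfbr3 (0.955 to 0.966). For Lyn they were Dusp3, Pon2 and Rgs2 (0.978 to 0.991), for Dok1 Sqor, Arf1 and Gm48062 (0.956 to 0.968), for Dok3 Nr1h2, Cd37 and Chrac1 (0.965 to 0.975), and for Dok2 Dcp1b, Gm3807 and Klf6 (0.880 to 0.925). Of these 30 genes Rtn4 passed the test between genotypes (-0.65, edgeR adjusted p = 0.0394). The libraries share genotype, and the highest of many correlations over 10 points is high by selection.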

How the data were processed

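Sorted marrow nonclassical monocytes of 2 genotypes were sequenced in bulk, 5 libraries each. The authors deposited 1 table of raw counts per Ensembl gene, with no normalization. Alignment was by GSNAP to GRCm38.p5, per the submitters' processing notes, and how reads were assigned to genes or strands is not stated there. Columns were matched to libraries by the identifier in the sample title, with 0 columns left over.

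GENCODE M21 (GRCm38) gave names, coordinates and exon lengths for 52489 of 52636 identifiers. R 4.3.3 and edgeR 4.0.16 were used: filterByExpr by group (minimum count 10, minimum total 15), TMM scaling, and the quasi-likelihood test of LAIR1KO against WT with no covariate. P-values were two-sided and adjusted by Benjamini-Hochberg over 13469 genes, with a threshold of 0.05. The F statistic gave the SEs and 95% intervals of the fold changes. Totals per library were 12106209 to 15356924. Chi-square per degree of freedom between replicates was 15.5 to 78.3, so none was the same library sequenced again. Separate preparations from one animal or one RNA pool cannot be recognised this way. Whether each library is a separate animal is not stated, and p-values then measure only the spread between libraries, which may be technical. The procedure was tested on simulated counts (13226 genes, 200 changed), where unchanged genes made up 4.39% of calls.

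The 10 genes, 7 pathway lists and 11 marker lists were chosen with earlier results of these data known. Named genes were Lair1, the 10 effectors, up to 4 called genes per pathway list (or the 1 with the smallest p), the most abundant member of each marker list, and the 3 genes most correlated with each effector. A gene that this rule takes is not reported here by name and remains in the counts. Cd3e, Cd3g, Ncr1, Sirpa, Pirb, Fgr and Fyn were chosen after their values were seen. Alternatives were RLE, upper-quartile and total-count scaling, 2 other filters on low values (none, or 1 CPM in 5 libraries), a replicate block, leaving out libraries, DESeq2 1.42.0, voom in limma 3.58.1 with and without library quality weights, and correction of each library for GC content and length.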

Additional observations from a re-analysis of the deposited data

Results flagged for a closer look

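Dok2 in LAIR1KO replicate 1 stood at 8.82 CPM, apart from the other 4 LAIR1KO libraries (4.78 to 5.77 CPM). Its gap to the nearest of them took 0.756 of the group's range, above Dixon's 95% critical value of 0.71 for 5 samples. Clec4a2, one of the receptor genes, stood at 17.4 CPM in LAIR1KO replicate 1 against 11.4 to 13.1 CPM in the others, with a gap of 0.714 of the range. Of 42 groups checked 2 stood out, and chance gives about 1 in 20.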

How the results depend on the processing

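Over 22 alternatives none of the effector genes other than Pag1 passed. The number of effectors past the threshold was 0 with all libraries, 0 in each of the 10 fits that left out 1 library, and 1 (Pag1) both without LAIR1KO replicates 4 and 5 together and after correction for GC content and length. The direction turned for Ptpn6 with library totals (0.0088) and without LAIR1KO replicates 4 and 5 (0.034), for Dok3 without these replicates (0.0059), and for Dok2 without WT replicates 1 and 4 (0.052); the cause was not tested. The count over all genes was 914, and 535 to 1170 with 1 library left out. It was 376 without LAIR1KO replicates 4 and 5, 338 without WT replicates 1 and 4, 1379 with library totals and 1466 with DESeq2. Higher genes were 75.3% of calls with TMM, 90.1% with library totals and 62.6% after correction for GC content and length. With the replicate block 600 genes and 0 effectors passed. No pairing by replicate number was seen: same-numbered deviations correlated at -0.08 to 0.05, and 0 of 5 WT libraries correlated best with their own number. Such correlations cannot settle whether libraries were collected or processed in pairs, which the labels do not state. With the longest transcript as length 7 of 10 effectors kept their rank. Ptpn7, Ubash3a, Siglece and Clec4a2 passed in all 22 alternatives, Blnk in 20, Fcgr2b and Cd72 in 17 each. Depth limits Dok2 most, with 56 counts in its lowest library.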

Other observations

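The most abundant member of each marker list by the mean over all 10 libraries, given as mean CPM in WT and in LAIR1KO, was Csf1r for nonclassical monocytes (5461 and 4738), Ccr2 for classical monocytes (648 and 423), Mpo for progenitors (518 and 3401), Top2a for dividing cells (66.1 and 182), Adgre1 for resident macrophages (912 and 716), Csf3r for neutrophils (414 and 399), Ighm for B cells (1138 and 1106), Nkg7 for T and NK cells (11.1 and 28.2), Tcf4 for dendritic cells (112 and 94.7), Hbb-bs for erythroid cells and platelets (220 and 37.3) and Prss34 for eosinophils, basophils and mast cells (13.6 and 18.9). In LAIR1KO the eosinophil granule gene Prg2, named after its values were seen, stood above Prss34 (1.31 and 28.0).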
